A study of Mus musculus with 15 samples.

Results

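Broad unmethylated stretches were examined in reduced representation bisulfite sequencing of mouse bone marrow progenitors, where the methylation level of a CpG is the share of its reads that bisulfite left unconverted. The genome (build mm9) was divided into 1 kb windows, and a window was measured where at least 3 autosomal CpGs had 10 or more reads in all 15 libraries. A stretch is a 5 kb bin, or a run of adjacent bins, that holds at least 3 measured windows, all with a mean level below 10% over the 4 wild type libraries. This gave 919 of the 29251 measured windows (3.14%), in 295 of the 548 bins that hold at least 3 measured windows. They formed 293 stretches, 2 of which spanned 2 bins. Wild type levels chose these windows, so a low wild type level is a property of the choice and not a result, and comparisons with wild type on the chosen windows are descriptions. The bins just admitted had their highest window at 9.61% near Il17ra, 9.86% at Hoxb7 and 9.95% at Foxd3, and the bins just missed had theirs at 10.2% at Six2, 10.2% at Pcdh8 and 10.4% at Hsd17b1.

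The 4 genotypes sequenced were all on the C57BL/6 strain. Double mutant cells (Mx1-cre+;Dnmt3a-/-;Idh2 R140Q, 3 libraries) were malignant marrow progenitors sorted with the surface markers of megakaryocyte-erythroid progenitors (MEP), lineage-negative and cKit+ without Sca1, CD34 and Cd16/32. Idh2 mutant cells (Mx1-cre-;Dnmt3af/f;Idh2 R140Q) and knockout cells (Mx1-cre+;Dnmt3a-/-) were sorted as MEP and as granulocyte-macrophage progenitors (GMP), which carry CD34 and Cd16/32, with 2 libraries each. Wild type cells (Mx1-cre+;Dnmt3af/f) gave 2 MEP and 2 GMP libraries and carry Cre and the floxed allele, while Idh2 mutant cells lack the Cre. Mx1-cre is an interferon-inducible recombinase that acts in blood cells and also in other tissues. Titles of wild type and knockout libraries carry the tag GFP and the others M140, which the labels do not explain. The labels call samples biological replicates without naming animals, so p-values may measure only the spread between samples. Double mutant cells were compared with MEP, and malignancy and the joint genotype cannot be told apart in them.

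Long unmethylated stretches, often called canyons or valleys, are known from blood stem cells and other tissues to cover CpG islands of developmental regulators that Polycomb proteins hold silent, as well as promoters of genes used in most cells. Dnmt3a places new methylation, and in blood stem cells it is known to act at the edges of such stretches. TET enzymes oxidise methylated cytosines towards their removal, and the product of Idh2 R140Q, 2-hydroxyglutarate, inhibits them.

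The following 200-base pieces of build mm9 come from windows of the stretches and are given because 5 of them lie in windows that differed between groups and 1 in a window that did not, each on the plus strand 5′ to 3′, with the CpGs that were measured in capitals. The first 4 come from stretches whose methylation was higher in double mutant than in knockout MEP libraries. They are the promoters of Adamts9 at chr6:92892007-92892206, Lingo2 at chr4:36898696-36898895, Alx1 at chr10:102492001-102492200 and Fam84a at chr12:14157001-14157200, the last from the promoter window beside the coding exon described below. An intron of Jup at chr11:100256641-100256840 was higher in the Idh2 mutant, and the promoter of Hmga2 at chr10:119913757-119913956 had 3.08% or less in every group, with the highest mean in Idh2 mutant GMP. Means over the capitalised CpGs were 67.5%, 57.0%, 68.7%, 42.3%, 0% and 0.608% in double mutant cells for the 6 pieces in the order named, 2.44%, 4.12%, 15.9%, 9.14%, 48.6% and 0% in Idh2 mutant MEP, and 0.584%, 1.43%, 16.8%, 4.29%, 1.99% and 1.21% in knockout MEP.
Adamts9 promoter: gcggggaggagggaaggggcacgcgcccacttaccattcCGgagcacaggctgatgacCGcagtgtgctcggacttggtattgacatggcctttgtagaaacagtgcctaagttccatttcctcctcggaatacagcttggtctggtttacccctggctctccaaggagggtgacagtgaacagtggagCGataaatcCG
Lingo2 promoter: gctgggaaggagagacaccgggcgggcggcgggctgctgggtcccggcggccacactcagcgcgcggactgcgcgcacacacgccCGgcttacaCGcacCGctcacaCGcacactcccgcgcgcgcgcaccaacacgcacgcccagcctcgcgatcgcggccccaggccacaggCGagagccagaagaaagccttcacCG
Alx1 promoter: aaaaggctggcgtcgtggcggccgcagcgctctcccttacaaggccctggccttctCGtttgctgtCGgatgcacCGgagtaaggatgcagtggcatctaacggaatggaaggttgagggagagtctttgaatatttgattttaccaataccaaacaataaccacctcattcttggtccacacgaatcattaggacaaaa
Fam84a promoter: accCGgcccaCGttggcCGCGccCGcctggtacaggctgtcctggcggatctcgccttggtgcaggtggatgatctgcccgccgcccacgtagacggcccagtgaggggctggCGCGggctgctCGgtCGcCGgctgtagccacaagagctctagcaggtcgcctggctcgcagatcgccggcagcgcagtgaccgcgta
Jup intron: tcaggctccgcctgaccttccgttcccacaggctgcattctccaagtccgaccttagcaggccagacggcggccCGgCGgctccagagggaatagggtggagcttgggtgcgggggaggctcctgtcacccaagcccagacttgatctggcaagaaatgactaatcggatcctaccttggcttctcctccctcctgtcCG
Hmga2 promoter: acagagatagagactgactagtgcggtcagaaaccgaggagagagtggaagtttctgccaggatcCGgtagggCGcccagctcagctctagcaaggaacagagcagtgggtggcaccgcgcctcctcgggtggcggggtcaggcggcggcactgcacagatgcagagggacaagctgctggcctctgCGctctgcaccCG
Single CpGs of a piece differed widely in double mutant cells, between 43.3% and 80.2% in the Adamts9 piece and between 18.1% and 85.1% in the Lingo2 piece. In the Jup piece the 3 CpGs lay at 0% in double mutant cells and between 16.7% and 83.0% in Idh2 mutant MEP.

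The name canyon holds only in part for these stretches. The measured windows of a bin spanned a median of 3292 bp from first to last CpG (1299 to 4949 bp). Of the 16958 CpGs in the bins with 10 or more pooled wild type reads, 1313 lay outside the windows used, and 69.99% of those were below 10% in wild type while 16.1% were at 50% or more. In 177 of the 295 bins every kilobase with such a CpG was below 10%, and in 118 at least 1 was at 10% or more. Of the 73 bins measured in each of their 5 kilobases, 33 were below 10% throughout. The bins are therefore clusters of unmethylated windows, with a methylated kilobase between or beside them in some. By sequence the windows resembled other windows that are low in wild type, with a median GC content of 58.8% against 58.2% and a median ratio of observed to expected CpGs of 0.685 against 0.687 (all measured windows had 53.5% and 0.471). Of the 919 windows 672 (73.1%) lay within 1 kb of an annotated start, here called promoters, 61 in coding exons, 10 in untranslated exons, 62 in introns and 114 between genes. Other low windows were promoters in 80.9%.

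Depth was sufficient to read low levels, with 7445 CpGs in the stretches and a median of 208 to 407 reads per window and library. Libraries held 28001420 to 31657332 reads over cytosines in double mutant, 19306705 to 24587340 in Idh2 mutant, 20541812 to 26086791 in knockout and 30751438 to 35204906 in wild type cells. Wild type libraries stood apart in sex chromosome reads, with X chromosome reads at 2.21% to 2.25% of autosomal reads, while the other libraries had 1.17% to 1.47%. Its part in the comparisons with wild type was not tested. The share of methylated reads on mitochondrial DNA, a rough gauge of incomplete conversion, was 0.912% to 1.56% in double mutant, 0.280% to 2.43% in Idh2 mutant, 0.631% to 2.77% in knockout and 1.62% to 3.27% in wild type libraries.

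Methylation entered the stretches in double mutant cells. The mean level of the 919 windows was 7.21%, 8.68% and 7.31% in the double mutant libraries, 2.82% and 2.51% in Idh2 mutant MEP, 3.63% and 2.95% in Idh2 mutant GMP, 1.65% and 1.98% in knockout MEP and 1.29% and 2.26% in knockout GMP. Wild type libraries, which chose the windows, had 1.63% to 1.73%. All double mutant libraries lay above all others, all Idh2 mutant libraries lay above all knockout libraries, and knockout and wild type libraries overlapped. The double mutant mean of 7.73% ± 0.825 (SD, n = 3) exceeded that of Idh2 mutant MEP, 2.66% ± 0.222 (n = 2), by 5.07 points and that of knockout MEP, 1.81% ± 0.235 (n = 2), by 5.92 points. With a wild type limit of 5% in place of 10% these differences were 3.26 and 3.56 points. The mitochondrial shares of the double mutant libraries, in the order above, were 1.56%, 0.912% and 1.30%. Those of Idh2 mutant MEP were 1.12% and 0.280%, and those of knockout MEP 1.23% and 1.66%. The part of conversion in the differences of the double mutant was not tested. In MEP and in GMP of both the Idh2 mutant and the knockout, the library with the higher mitochondrial share also had the higher level, and the part of conversion in the 1.18 points between Idh2 mutant and knockout was not tested. The remaining 13360 windows below 10% in wild type averaged 5.42% in double mutant, 2.09% in Idh2 mutant MEP, 1.53% in knockout MEP and 1.31% in wild type MEP libraries, so the order of groups was shared with low windows elsewhere.

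**Figure D1:**
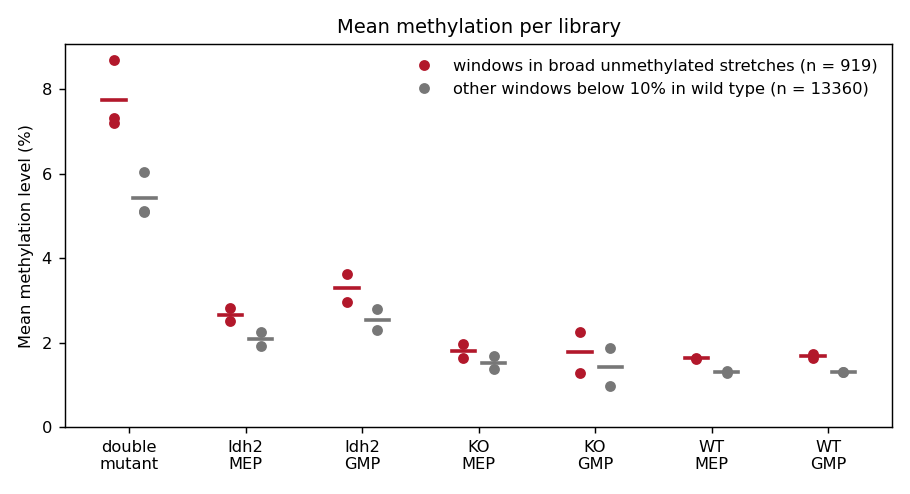
Mean methylation level (%) of each library, for the 919 windows of the stretches (red) and the 13360 other windows below 10% in wild type (grey); points are libraries and bars are group means. The 3 double mutant libraries lie at 7.21% to 8.68% in the stretches, above every other library.

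The gain was uneven between windows and shared between libraries. At 10% or more stood 236, 274 and 234 windows in the double mutant libraries, 58 to 87 in Idh2 mutant, 6 to 20 in knockout and 12 to 22 in wild type libraries. In all 3 double mutant libraries 191 windows (20.8%) reached 10%, and 609 (66.3%) did so in none. Spearman's rho between double mutant libraries over the windows was 0.870 to 0.892, a description of windows that share libraries. At the level of single CpGs, 57.1% to 61.5% of the 7445 had no methylated read in a double mutant library and 16.9% to 21.7% had 10% or more, while 68.4% and 79.5% had none in Idh2 mutant MEP libraries, 60.8% and 73.3% in Idh2 mutant GMP, 74.9% and 72.8% in knockout MEP and 82.4% and 62.4% in knockout GMP. The share without a methylated read thus overlapped between groups. The share at 10% or more was 6.23% to 10.3% in Idh2 mutant and 3.47% to 5.43% in knockout libraries, below every double mutant library.

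Against knockout MEP, 198 of the 919 windows (21.5%) were higher in double mutant cells, where the rate over all measured windows was 11.4% (quasi-binomial model, adjusted p under 0.05 over all 29251 windows and a difference of at least 10 points). No member window was lower by this rule, against 1.72% of all windows, and 422 had an unadjusted p under 0.05 in either direction. These windows started below 10%, so few could be lower by 10 points. Without the minimum difference 289 were higher and 19 lower (14.9% and 3.45% of all windows). The count of lower windows was 0 with limma and with edgeR as well. The 198 windows lay in 104 stretches, with a median difference of 19.8 points (10.1 to 66.4). Among the other low windows 13.4% were higher, and among all windows of the 548 bins with at least 3 measured windows 21.6%. With the reads of a bin summed, 106 of 295 bins (35.9%) were higher by at least 5 points and 0 lower (151 at an unadjusted p under 0.05), where 39.4% of all 548 bins were higher and 2.19% lower.

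Adamts9, which encodes a secreted protease of the extracellular matrix, held the largest rise. Its promoter window chr6:92892001-92893000 had 63.8%, 73.4% and 63.7% in double mutant libraries, 4.69% and 0% in Idh2 mutant MEP, and 0% and 1.15% in knockout MEP. The difference from knockout MEP was 66.4 points (adjusted p = 6.34e-06), measured at 4 CpGs. The neighbouring promoter window of Adamts9 averaged 59.2% ± 6.43 in double mutant (SD, n = 3) and 2.99% ± 0.149 in knockout MEP libraries (n = 2), and the intron window beside it 36.3% ± 9.82 and 2.81% ± 1.56. In this stretch each measured window was thus higher in the double mutant.

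The Lingo2 promoter, of a leucine-rich repeat membrane protein, followed with 54.1%, 57.3% and 58.2% in double mutant libraries, 0.510% and 6.89% in Idh2 mutant MEP and 1.12% and 1.65% in knockout MEP (chr4:36898001-36899000, adjusted p = 1.11e-05). Alx1 encodes a homeodomain factor of the face and skull, and its promoter had 61.1%, 66.7% and 78.4% in double mutant libraries, 9.85% and 22.0% in Idh2 mutant MEP and 8.33% and 25.2% in knockout MEP (chr10:102492001-102493000, adjusted p = 0.000745). Its knockout libraries were unequal, yet both lay far below the double mutant. Fzd10, a Frizzled receptor for Wnt ligands, was measured at 19 CpGs. Its promoter had 44.3%, 51.7% and 42.9% in double mutant libraries, 2.77% and 1.46% in Idh2 mutant MEP and 2.96% and 2.17% in knockout MEP (chr5:129106001-129107000, difference 43.7 points, adjusted p = 4.66e-07). This was the most closely measured of the 10 largest rises.

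Further large rises lay at transcription factors of the nervous system, liver and vessels. An intron of Onecut2, a factor of liver and neurons, was 48.7 points above knockout MEP and averaged 52.8% in the double mutant. A coding exon of Dbx1, a homeodomain factor of spinal cord interneurons, was 41.7 points above it. The promoter of Nr2f2, a nuclear receptor of venous endothelium, had 38.1%, 55.9% and 39.9% in double mutant and 6.42% and 1.82% in knockout MEP libraries (adjusted p = 0.00289). The rest of the 10 largest rises were a coding exon of Fam84a (46.3 points), the promoter of Klhl29 (45.2 points) and a window 65296 bp from the start of Gm6158 (49.2 points). In all 10 windows, which were picked for their large rises, each double mutant library stood above every knockout and Idh2 mutant library.

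**Figure D2:**
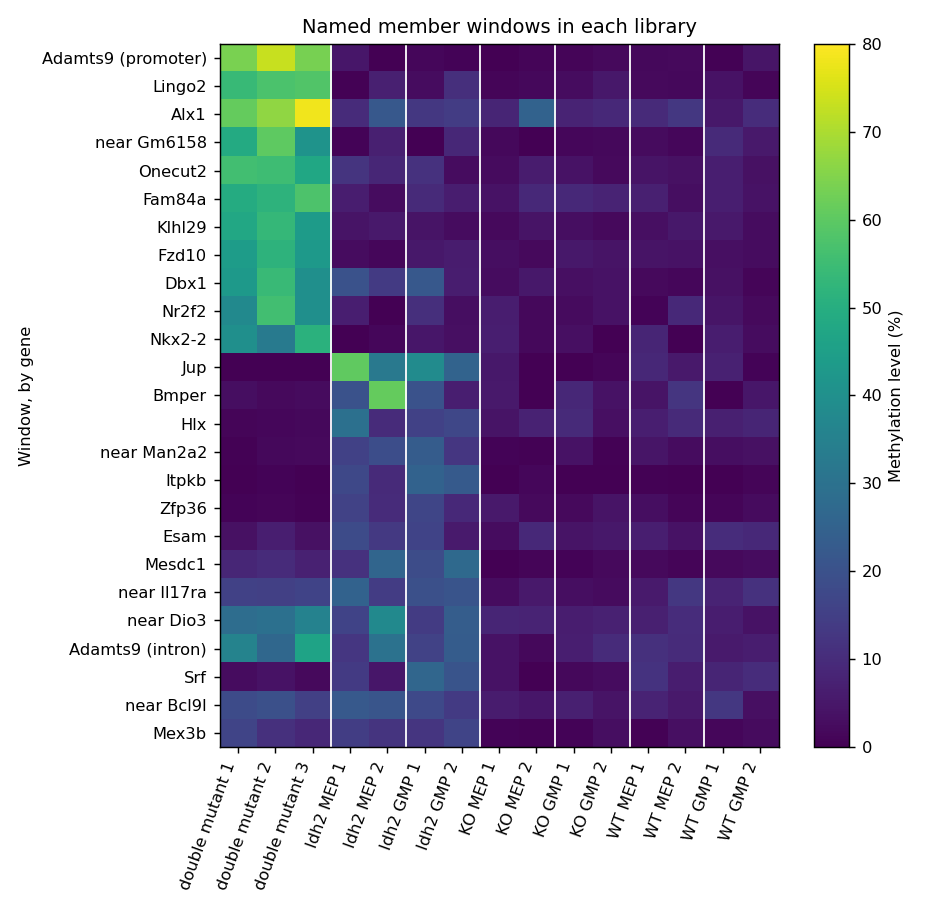
Methylation level (%) of the named windows (rows, by gene) in each of the 15 libraries (columns, by group), as colour on a linear scale. The upper 11 rows are high in the 3 double mutant libraries, and the rows from Jup downward are higher in both Idh2 mutant MEP than in both knockout MEP libraries.

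Against Idh2 mutant MEP, 162 windows (17.6%) were higher in double mutant cells, where 10.6% of all windows were. Lower were 8 (0.871%), where 3.44% of all windows were. Only 58 windows stood at 10% or more in each Idh2 mutant MEP library, so few could be lower by 10 points. Among the other low windows 11.9% were higher and 0.958% lower. Among all windows of bins with at least 3 measured windows it was 17.2% and 3.05%. The higher windows lay in 91 stretches with a median difference of 20.4 points, and the 10 largest were the same genes as against knockout MEP save that Nkx2-2 took the place of Dbx1. The promoter of Nkx2-2, a factor of pancreas and ventral neural tube, had 39.8%, 32.5% and 50.9% in double mutant and 0% and 1.37% in Idh2 mutant MEP libraries (chr2:147011001-147012000, adjusted p = 0.00128). Comparisons with the knockout and with the Idh2 mutant share the double mutant libraries, so their overlap is no independent result. Bins gave 94 higher and 1 lower of 295, where 31.8% and 4.2% of all bins were.

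The 8 lower windows lay in 8 stretches, and none of them differed from knockout MEP by the same rule. An intron of Jup, which encodes the junction protein plakoglobin, had 0% in each double mutant library, 60.3% and 32.4% in Idh2 mutant MEP, 38.6% and 25.5% in Idh2 mutant GMP, at most 5.19% in knockout and at most 8.92% in wild type libraries (chr11:100256001-100257000). The difference of the double mutant from Idh2 mutant MEP was -46.4 points (adjusted p = 0.000250), and that from knockout MEP -2.60 points (adjusted p = 0.182). A window 1929 bp from Man2a2, a Golgi mannosidase, had 0.370%, 1.58% and 1.98% in double mutant, 15.5% and 18.8% in Idh2 mutant MEP and 0.881% and 0.508% in knockout MEP libraries. Itpkb, an inositol phosphate kinase of blood cells, had 0% to 0.662% in double mutant, 17.5% and 9.59% in Idh2 mutant MEP and 0.299% and 1.45% in knockout MEP libraries in a coding exon. Hlx, a homeodomain factor of blood progenitors, had 0.998% to 1.62% in double mutant, 29.7% and 9.92% in Idh2 mutant MEP and 4.21% and 7.69% in knockout MEP libraries in its promoter.

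The other lower windows were at Bmper (-38.1 points), Zfp36 (-12.1), Esam (-11.1) and Mesdc1 (-10.2). Bmper encodes a secreted BMP-binding protein, and its 2 Idh2 mutant MEP libraries were far apart, at 20% and 61.1%. Without Idh2 mutant MEP replicate 2 its difference was -17.6 points (adjusted p = 0.0788) and that of Mesdc1 -2.91 (adjusted p = 0.566). Without Idh2 mutant MEP replicate 1, Hlx, Itpkb and Zfp36 differed by -8.57, -9.37 and -9.13 points, under the 10 points of the rule. Esam had adjusted p = 0.105 without Idh2 mutant MEP replicate 1 and 0.107 without replicate 2. Jup and Man2a2 passed without either library.

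The Idh2 mutant differs from the knockout in both alleles and in Cre. Between them, 14 windows in 13 stretches were higher in the Idh2 mutant than in the knockout over both cell types, which is 1.52% of the windows, where 3.01% of all windows were higher. None was lower (quasi-binomial model, 160 with an unadjusted p under 0.05 in either direction, and 0 lower with limma and edgeR), where 0.161% of all windows were. The windows were low in the knockout as well, so few could be lower by 10 points. Without the minimum difference 31 were higher and 1 lower (3.73% and 0.301% of all windows). The share of higher windows was thus not raised over that of all windows, and among the other low windows 1.18% were higher. Without the minimum difference 3.37% of the windows were higher, against 2.45% of the other low windows. The Jup intron led with 37.7 points (adjusted p = 0.00249). The promoter of Mesdc1, measured at 18 CpGs, had 11.5% to 27.3% in the 4 Idh2 mutant libraries and 0% to 2.06% in the 4 knockout libraries (chr7:91031001-91032000, adjusted p = 0.00103). Double mutant libraries had 7.29% to 9.74% there, between both groups. The coding exon of Itpkb was 18.3 points higher and the window near Man2a2 16.1 points.

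A window 28786 bp from Il17ra, the receptor of interleukin-17, was measured at 20 CpGs and had 14.3% to 25.3% in Idh2 mutant and 2.39% to 5.49% in knockout libraries (chr6:120442001-120443000, adjusted p = 0.00186). Mex3b, an RNA-binding protein gene, had 12.02% to 16.5% in Idh2 mutant and 0.453% to 2.97% in knockout libraries in a coding exon. Windows near Dio3 and Bcl9l, an intron of Adamts9 and a coding exon of Srf, a factor of the cytoskeleton and immediate early genes, were higher by 13.1 to 15.4 points, and each lost its call without at least 4 of the 8 libraries, left out in turn. Leaving out 1 library changed the count of 14 to 6 (knockout GMP replicate 1), 7 (Idh2 mutant GMP replicate 1) or 8 (knockout MEP replicate 1), and limma gave 9 and edgeR 8. Of the 295 bins 9 were higher and 0 lower (67 at an unadjusted p under 0.05), where 8.03% of all bins were higher and 0% lower. The 9 became 3 without knockout GMP replicate 1 and 4 without Idh2 mutant MEP replicate 2.

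The cell types of a genotype did not differ in any of the windows by the same rule. Knockout MEP against knockout GMP gave 0 calls (70 windows at an unadjusted p under 0.05, where 0.0103% of all windows were called), and Idh2 mutant MEP against Idh2 mutant GMP gave 0 (114 windows, where 0.0684% were called), likewise with limma and edgeR. Whether the difference between Idh2 mutant and knockout depended on the cell type was tested as an interaction, which 0 windows passed (72 at an unadjusted p under 0.05). A count of 0 with 2 libraries a group does not show that the cell types are alike.

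For comparisons with wild type, stretches were chosen again by the same rule on wild type GMP alone (922 windows, 97.9% of them among the 919) and tested against wild type MEP, and the reverse (906 windows, 98.2%). In double mutant cells 202 of 922 windows were higher than in wild type MEP, where 12.3% of all windows were, and 0 lower, where 1.94% were (392 at an unadjusted p under 0.05 in either direction, and 0 lower with limma). Without the minimum difference 314 were higher and 6 lower (18.7% and 2.46% of all windows). Idh2 mutant MEP exceeded wild type MEP in 4 windows, where 0.752% of all windows did and 0.137% were lower, and Idh2 mutant GMP exceeded wild type GMP in 2 of 906, where 0.424% did and 0.0547% were lower. Both counts were 0 with limma. The 4 became 0 without either wild type MEP library and 1 without Idh2 mutant MEP replicate 2, and the 2 became 0 without either wild type GMP library or Idh2 mutant GMP replicate 1 and 4 without Idh2 mutant GMP replicate 2. Knockout MEP and knockout GMP differed from wild type in 0 windows each (quasi-binomial model, 109 and 42 at an unadjusted p under 0.05, limma 0), where 0.373% and 0.133% of all windows did. Wild type MEP and GMP libraries of 1 title prefix may come from the same animal, so the choice and the test are not fully independent.

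The starting level went with the gain. Of the 542 windows below 1% in wild type, 22 (4.06%) were higher in double mutant than in knockout MEP. Of the 194 between 1% and 3% it was 70 (36.1%), and of the 183 between 3% and 10% it was 106 (57.9%). The share was 11.4% over all measured windows and 13.4% over the other low windows. No such split is given for the other low windows, so whether this pattern is particular to the stretches was not tested. Over the 919 windows Spearman's rho of the difference was 0.65 with the wild type level, 0.18 with the distance to the nearest start, -0.13 with the ratio of observed to expected CpGs and -0.068 with the reads per window, given as a description of windows that share libraries. The wild type level also differed between places, so place and starting level cannot be told apart in what follows. Higher were 121 of 672 promoter windows (18.01%), 26 of 61 in coding exons (42.6%), 16 of 62 in introns (25.8%) and 33 of 114 between genes (28.9%).

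**Figure D3:**
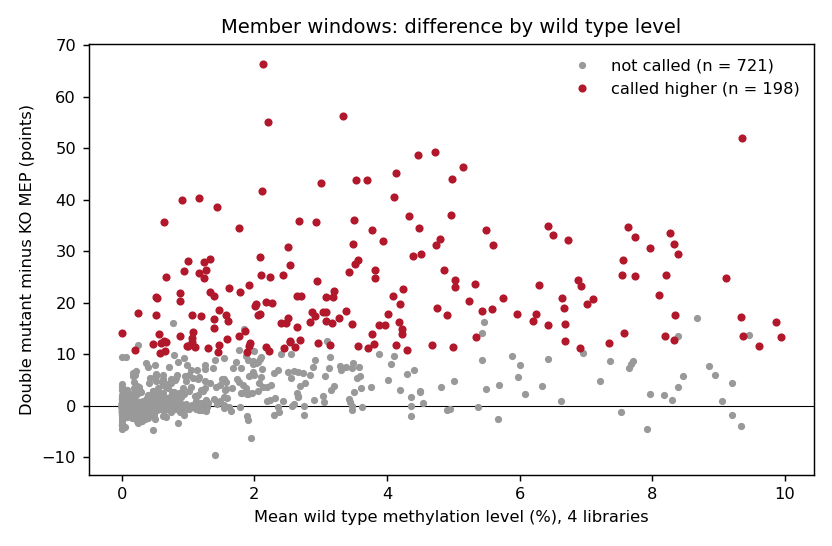
Difference in methylation level between double mutant and knockout MEP (points, mean of 3 minus mean of 2 libraries) for each of the 919 windows, against its mean level over 4 wild type libraries (%). Red windows passed the test, 198 in all, and most windows near 0% in wild type stayed near 0 points.

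Promoters of developmental genes were among those that gained methylation. The gene lists here and below were chosen with earlier results of these data known, so the shares of a list are descriptions. Among 155 measured transcription factors of embryonic patterning, 44 had a promoter window in a stretch, and the promoters of 28 of these rose against knockout MEP and none fell. Of all 304 genes with such a promoter 83 rose (27.3%). Among the 44 those of Sall1, a zinc finger factor of kidney and limb, had 45.5%, 38.6% and 37.1% in double mutant and 4.75% and 4.50% in knockout MEP libraries (adjusted p = 4.60e-06). That of En1, a homeodomain factor of midbrain and limb, had 26.0%, 30.9% and 25.1% in double mutant and 0.272% and 2.17% in knockout MEP libraries (adjusted p = 1.20e-05). That of Foxd3, a factor of neural crest, had 34.1%, 46.6% and 34.9% in double mutant and 3.804% and 4.12% in knockout MEP libraries. Tlx3, a homeodomain factor of sensory neurons, had 53.5%, 38.2% and 13.7% in double mutant libraries, a wide spread, and 5.81% and 6.21% in knockout MEP. The 16 that did not pass included Gata3, Cdx2, Meis2, Nfib, Six4 and Zic2.

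The gain was also seen outside the stretches. Over all measured promoters of the same list, in or outside stretches, 95 of 155 genes had a window that rose, and over all genes 1411 of 10337 (13.7%). Promoter windows within the stretches only were also grouped by wild type level, below 1%, at 1% to 3% and at 3% to 10%. Those of the Hox, developmental factor and secreted signal lists rose in 13.95%, 45.5% and 67.5% of windows. Those of other genes rose in 2.76%, 25.8% and 59.6%. These shares rest on 43, 44 and 40 windows of the lists and 399, 89 and 57 others, and their difference was not tested.

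Hox genes, whose clustered homeodomain factors set position along the body axis, had 6 of 33 measured members in the stretches. Promoters of 4 of the 6, Hoxa11, Hoxb7, Hoxb8 and Hoxd3, rose against knockout MEP, where 27.3% of all genes with a promoter in a stretch did. In or outside stretches 23 of the 33 rose (69.7%), where 13.7% of all measured genes did. Hoxd3 was covered by 3 windows that each rose, the highest with 33.3%, 44.5% and 39.7% in double mutant, 3.67% and 8.65% in Idh2 mutant MEP and 2.75% and 1.61% in knockout MEP libraries (chr2:74578001-74579000, difference 37.0 points, adjusted p = 4.22e-05). Hoxa11 rose in 1 of its 2 windows, by 14.2 points at 19 CpGs. Hoxb7 and Hoxb8 share 1 window, where 1 of 3 double mutant libraries was far above the others (10.6%, 8.38% and 34.9%, against 0% in both knockout MEP libraries, adjusted p = 0.0330). Hoxa9 and Hoxa10, which are expressed in blood stem cells, did not reach the rule, with differences of 9.28 and 7.21 points in their highest windows (adjusted p = 0.00547 and 0.00930).

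Secreted signals of development had 6 of 55 measured genes in the stretches, of which Bmp2, Gdnf, Inhbb and Jag1 rose, where 27.3% of all genes with such a promoter did. In or outside stretches 27 of the 55 rose (49.1%), where 13.7% of all measured genes did. Jag1, a Notch ligand, had 25.2%, 23.6% and 30.3% in double mutant, 0.433% and 0.777% in Idh2 mutant MEP and 0.831% and 0.442% in knockout MEP libraries (adjusted p = 1.70e-05). Inhbb, an activin subunit, had 26.2%, 35.9% and 39.9% in double mutant and 1.66% and 3.91% in knockout MEP libraries. Bmp2, a bone morphogenetic protein, was 16.1 points higher at 22 CpGs. The promoters of Tgfb1, whose product is made by many blood cells, held 0% in all double mutant and knockout MEP libraries, and those of Wnt10b differed by at most 1.08 points.

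Of 39 measured stem and early progenitor genes 6 had promoters in the stretches, and 0 of them rose or fell against knockout MEP, where 27.3% of all genes with such a promoter rose. In or outside stretches 2 of the 39 rose (5.13%), where 13.7% of all measured genes did. Fli1, an ETS factor of stem cells and megakaryocytes, had at most 1.26% in any double mutant library over 3 windows, and Pbx3, a homeodomain partner of Hox proteins, at most 1.93%. Hmga2, a chromatin protein of fetal stem cells, reached 3.67%. Mecom, a zinc finger factor that stem cells need, had 9.38%, 17.4% and 5.83% in double mutant, 0% and 0% in Idh2 mutant MEP and 4.42% and 1.73% in knockout MEP libraries in 1 promoter window. It rose against Idh2 mutant MEP (10.9 points, adjusted p = 0.00157), and against knockout MEP the difference was 7.81 points (adjusted p = 0.0257, under the 10 points of the rule). Esam, an adhesion molecule of endothelium and stem cells, fell against Idh2 mutant MEP as given above, and the promoter window of Zfp36, which promotes decay of cytokine mRNAs, had 0% in each double mutant library.

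Of 20 measured genes of the erythroid, megakaryocyte or myeloid list, Bcl11a, Irf4 and Junb were in the stretches, and among epigenetic regulators Jarid2, a Polycomb partner, and Kdm2a, a histone demethylase that binds CpG islands, were described. Irf4, a factor of lymphoid and dendritic cells, rose in 1 of its 3 promoter windows. There double mutant libraries had 37.2%, 21.3% and 21.4% and knockout MEP libraries 8.40% and 4.93% (adjusted p = 0.00379). Of the 3 genes of its list in the stretches 1 thus rose, where 27.3% of all genes with such a promoter did. In or outside stretches 3 of the 20 rose (15%), where 13.7% of all measured genes did. Promoters of Bcl11a, Junb, Jarid2 and Kdm2a did not pass against either single mutant, and their windows had at most 7.07% in any double mutant library.

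**Figure D4:**
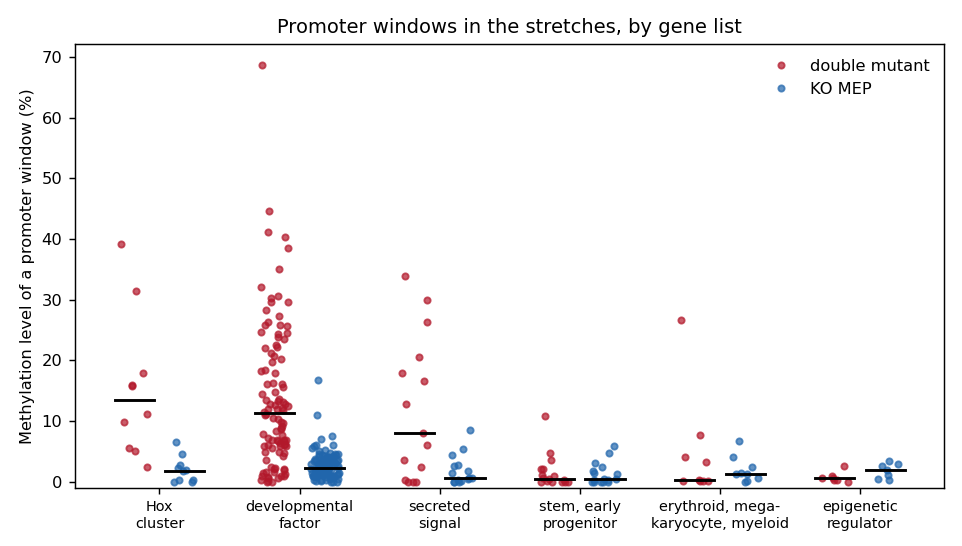
Methylation level (%) of each promoter window in the stretches, by gene list, as the mean of 3 double mutant (red) and of 2 knockout MEP libraries (blue); black bars are medians over windows. Windows of the Hox, developmental factor and secreted signal lists reach above 30% in double mutant cells, and those of the stem and early progenitor list stay below 11%.

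Neighbouring windows of a stretch often differed. Within a bin the range between windows had a median of 4.56 points and a maximum of 45.2 points in double mutant cells, a median of 2.42 and a maximum of 46.4 points in Idh2 mutant MEP, and a median of 1.78 and a maximum of 15.3 points in knockout MEP. Of the 295 bins, 191 had no window higher than in knockout MEP, 41 had 1, 33 had 2, 29 had 3 and 1 had 4, and in 25 bins each measured window was higher. Prdm12, a factor of pain-sensing neurons, had 4 windows, with means of 26.5%, 36.1%, 15.7% and 37.9% in double mutant and of 3.10%, 5.03%, 8.08% and 3.44% in knockout MEP libraries. The third did not pass (adjusted p = 0.0775). Lhx2, a LIM homeodomain factor of forebrain and limb and one of the longest stretches with 6 windows and 44 CpGs, rose in 1 window, with 18.4% ± 2.36 in double mutant (SD, n = 3) and 4.60% ± 1.86 in knockout MEP libraries (n = 2). Bcan, a brain proteoglycan, rose in 1 of 4 windows.

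Several of the longest stretches stayed near 0%. Sin3a, a corepressor scaffold, had 5 windows with 0% to 0.371% in double mutant and 0.491% to 2.43% in knockout MEP libraries on average. Ptma, which encodes prothymosin alpha, had 4 windows with 65 CpGs and at most 0.326% in double mutant cells, and Klf13 had at most 0.443%. The stretch of Zfp36 and Plekhg2, with 6 windows and 43 CpGs, averaged 0.812% in double mutant, 2.39% in Idh2 mutant MEP and 1.599% in knockout MEP cells. The 5 bins with the lowest mean over the 11 mutant libraries lay at Zfp541, Bcl6, Arid2, Tgfb1 and Srsf7 (0.218% to 0.237%), and the 5 highest at Adamts9, Fam84a, Gm6158, Dbx1 and Fzd10 (15.2% to 19.8%). These extremes were picked by the mutant levels and are a description.

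Methylation was also higher in double mutant cells beside the stretches. The 245 measured windows in the 5 kb beside a stretch, a set that the wild type choice of the stretches also shaped, were higher in double mutant than in knockout MEP cells in 71 cases and lower in 3 (28.98% and 1.22%, where 11.4% and 1.72% of all windows were). Against Idh2 mutant MEP 52 were higher in double mutant cells and 11 lower (21.2% and 4.49%, where 10.6% and 3.44% of all windows were). Idh2 mutant exceeded knockout in 14 (5.71%) and fell below it in none (3.01% and 0.161% of all windows). The 14 became 9 without knockout GMP replicate 1 or 2 or Idh2 mutant MEP replicate 2, 7 without knockout MEP replicate 1 and 8 with limma. In the nearest kilobase (78 windows) the mean was 16.9% ± 1.24 in double mutant (SD, n = 3), 10.5% ± 0.939 in Idh2 mutant MEP, 5.91% ± 1.44 in knockout MEP and 8.004% ± 0.159 in wild type MEP libraries (n = 2 each). There the knockout MEP libraries, at 4.90% and 6.92%, lay below both wild type MEP libraries, at 7.89% and 8.12%, and knockout GMP, at 5.61% and 6.46%, below wild type GMP, at 8.07% and 8.19%. No test over these windows was made. Wild type levels decided which bins were stretches and so which windows lie beside them, so this comparison with wild type is a description. GMP and MEP of 1 title prefix may also come from the same animal. Between 2 and 3 kb away the means were 28.9%, 24.1%, 22.3% and 22.5% in the same order of MEP groups. Inside the stretches the outer windows of a bin averaged 8.72% in the double mutant and the middle ones 7.50%.

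**Figure D5:**
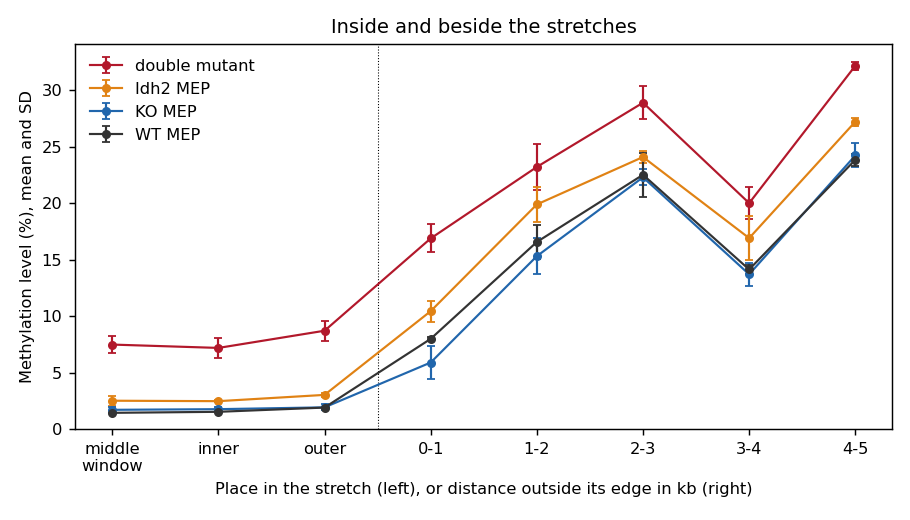
Methylation level (%) of the middle, inner and outer windows of the stretches (left of the dotted line) and of windows 0 to 5 kb outside the edge of the 5 kb bins (right, in kb), as the mean and SD over 3 double mutant and over 2 libraries of each other MEP group. The double mutant lies above the other groups in each place. The knockout lies below wild type in the nearest kilobase outside, a set of windows that the wild type choice of the stretches also shaped.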

How the data were processed

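The 15 deposited tables, 1 per library, list cytosines with the authors' counts of methylated and of all reads, aligned with BSMAP 2.74 to mm9 per the submitters' processing notes. The methylation fraction that the authors deposited equalled the ratio of the counts within 0.0005 and served no test. For trimming, duplicate removal and conversion the sources used here give nothing. Reads without molecular identifiers are not independent molecules, so precision covers counting error only. Strands were summed, and a window's level is the ratio of its summed methylated to summed total reads. All 241527 CpGs used lay on CG in the mm9 sequence, and genes came from gencode vM1.

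The test was a quasi-binomial logistic fit, with 1 mean for each of 7 groups, with the dispersion squeezed (8 residual degrees of freedom, prior 3.13, median 2.29) and kept at 1 or more. Contrasts used an F test with Benjamini-Hochberg adjustment over all 29251 windows, or over 548 bins. Calls required an adjusted p under 0.05 with 10 points for windows or 5 points for bins. On simulated reads for double mutant against knockout MEP, over 29251 windows, 27.1%, 92.9% and 98.3% of rises of 10, 20 and 30 points were found, and 2 of 145 calls were false. The simulation used the fitted dispersion and raised only 70, 70 and 60 windows, with the groups otherwise equal. Far more windows differed in the data, so these rates may not hold there. A rise of 10 points also sits at the minimum that a call requires.

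The windows and gene lists were chosen with earlier results of these data known. Named windows were the 10 stretches with the most windows, up to 10 largest rises and falls per contrast (1 per stretch), promoters of the stem and early progenitor list, and the 5 highest and 5 lowest bins over the mutants. Other genes named from the lists, among them Sall1, En1, Foxd3, Tlx3, Hoxd3, Jag1 and Irf4, and the 6 printed sequences were picked as examples after their values were seen. Some list members are not reported here. A window took the gene with a start within 1 kb, else the gene holding it, else the nearest. Alternatives were limma 3.58.1 and edgeR 4.0.16 (pseudocount 1), 20 reads per CpG, other bins, a wild type limit of 5%, a replicate block and each library left out. R 4.3.3 ran both packages, and everything else ran in Python 3.11.15 (scipy 1.17.1, numpy 2.4.6, pandas 2.3.3, matplotlib 3.10.9).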

Additional observations from a re-analysis of the deposited data

How the results depend on the processing

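No result changed direction under any alternative run. The rises of double mutant over knockout MEP numbered 134 to 203 with each library left out in turn (164 with edgeR, 181 with limma), and calls against Idh2 mutant MEP 119 to 169. Without the minimum difference the 198 calls became 308, the 14 between Idh2 mutant and knockout 32, and the 202 against wild type MEP 320. At 20 reads per CpG 558 windows could be tested, with 101, 90 and 6 calls for double mutant against knockout, double mutant against Idh2 mutant and Idh2 mutant against knockout. Against wild type that minimum gave 104 for the double mutant, 1 for Idh2 mutant MEP and 0 for Idh2 mutant GMP. The rule itself then gave 246 windows, and 29, 24 and 0 of 75 bins were called. Bins of 10 kb with 6 windows gave 0 windows, bins shifted by 2500 bp 816 and a wild type limit of 5% 691. The last lowered the mean difference of the double mutant to 3.56 points from knockout MEP and 3.26 points from Idh2 mutant MEP. Weighting by reads gave 5.09 points from knockout MEP.

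The 14 calls of Idh2 mutant over knockout ranged from 6 to 15 with libraries left out (9 with limma, 8 with edgeR), and the bins from 3 to 11. Calls against wild type ranged from 163 to 205 for the double mutant, from 0 to 4 for Idh2 mutant MEP and from 0 to 4 for Idh2 mutant GMP, with 0 and 0 under limma. Flanking windows were run after seeing the data with limma, giving 61 and 8 calls, and with libraries left out, giving 51 to 73 for double mutant and 7 to 17 for Idh2 mutant over knockout. Replicate numbers did not pair samples across genotypes (correlations of deviations -0.048 to 0.049). GMP and MEP of 1 title prefix correlated by 0.510 in the Idh2 mutant, 0.361 in wild type and -0.040 in the knockout. With the replicate number as a block the counts were 190, 158 and 14. These are for double mutant against knockout, double mutant against Idh2 mutant and Idh2 mutant against knockout. This block was shared by all genotypes, so GMP and MEP of 1 title prefix still counted as independent samples in these counts. Of the named windows the block ended the call of Esam alone (adjusted p = 0.105). Depth limits single windows, since those with 3 CpGs rest on as few as 30 reads a library.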
